A study of Mus musculus with 6 samples.

Results

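The genes described here belong to the bone-forming lineage and were read as a record of bone in the dissected modiolus, the core of the cochlea that carries the auditory nerve. They were chosen by name: Sp7, Runx2, Alpl, Ibsp, Col1a1, Col1a2, Sost, Dmp1, Phex and Spp1, with every probe set annotated to exactly 1 of them. Of these 10 genes, 8 had a named probe set, 16 probe sets in all among the 45101 on the array, and Runx2 and Spp1 were not analysed here. A probe set is a group of short probes that together report 1 stretch of a transcript. Of the 16, 14 probe sets of all 8 genes lay above the signal cutoff of 4.25 (log2) on at least 3 of the 6 arrays and were tested, and 13 lay above it on all 6.

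Messenger RNA had been measured on Affymetrix mouse arrays, 1 per mouse, in modioli of CBA/CaJ mice, an inbred strain. The noise-exposed group held 3 mice that at 4 weeks of age had spent 5 h in noise of 5 to 20 kHz at 110 dB SPL, and the unexposed group held 3 mice that stayed in the holding room. All were killed at 8 weeks of age, and the modioli of the left and right ear of a mouse were pooled, so bone, nerve, glia, vessels and connective tissue of both ears were read together. The study asked whether genes stayed changed weeks after acoustic damage. All 3 noise-exposed mice were female litter mates from the first of 2 dissection days. Unexposed mouse 1 was a male of that same day, unexposed mouse 2 a female and unexposed mouse 3 a male dissected on the second day, each from a litter of its own. Litter and exposure cannot be told apart in this design. The total RNA put into amplification was 15, 18 and 10 ng for the noise-exposed mice, and 21, 8 and 8 ng for the unexposed mice.

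Bone is built by osteoblasts, which secrete a matrix of type I collagen and then mineralise it; osteoblasts that become buried in that matrix turn into osteocytes, which sense load and regulate phosphate and bone formation. The transcription factor Sp7, also called osterix, commits precursors to this fate. Alpl frees phosphate for mineral, Ibsp and Dmp1 are acidic proteins that bind mineral, Dmp1 and Sost mark the osteocyte stage, and Phex is made by osteoblasts and osteocytes. In the cochlea such cells belong to the thin bone around the spiral ganglion, while type I collagen is also made by fibroblasts, so the collagen genes mark bone less strictly than Sp7, Ibsp, Dmp1 or Phex.

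The data showed an osteoblast and osteocyte signal on every array and no difference between the groups that passed the test. Of the 8 genes, 6 averaged higher and 2 lower in noise-exposed than in unexposed modioli on their brightest probe set, with a median log2 fold change of 0.28, against a median of 0.07 over the 11861 genes tested the same way. The differences ran from 0.57 (log2) for Ibsp to -0.14 for Dmp1. The limma test, a moderated linear model fitted over all 25200 tested probe sets, called 0 of the 14 probe sets at a Benjamini-Hochberg adjusted p under 0.05, and it called 0.0% of all tested probe sets. None of the 14 had an unadjusted p under 0.05, which 7.07% of all tested probe sets had. When unexposed mouse 1 was left out 4 of the 14 had one, against 8.08% of all tested probe sets, and under each other alternative run 0 or 1 did. Without that mouse all unexposed mice were of the second dissection day and all noise-exposed mice of the first. Day and exposure cannot be told apart there. Counted by probe set, 10 of the 14 lay above 0, where 60.0% of all tested probe sets with 1 gene symbol did. The groups did not overlap for 2 of the 14, both higher in noise-exposed mice, against a background of 13.5% in either direction and 8.47% in that direction.

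**Figure D1:**
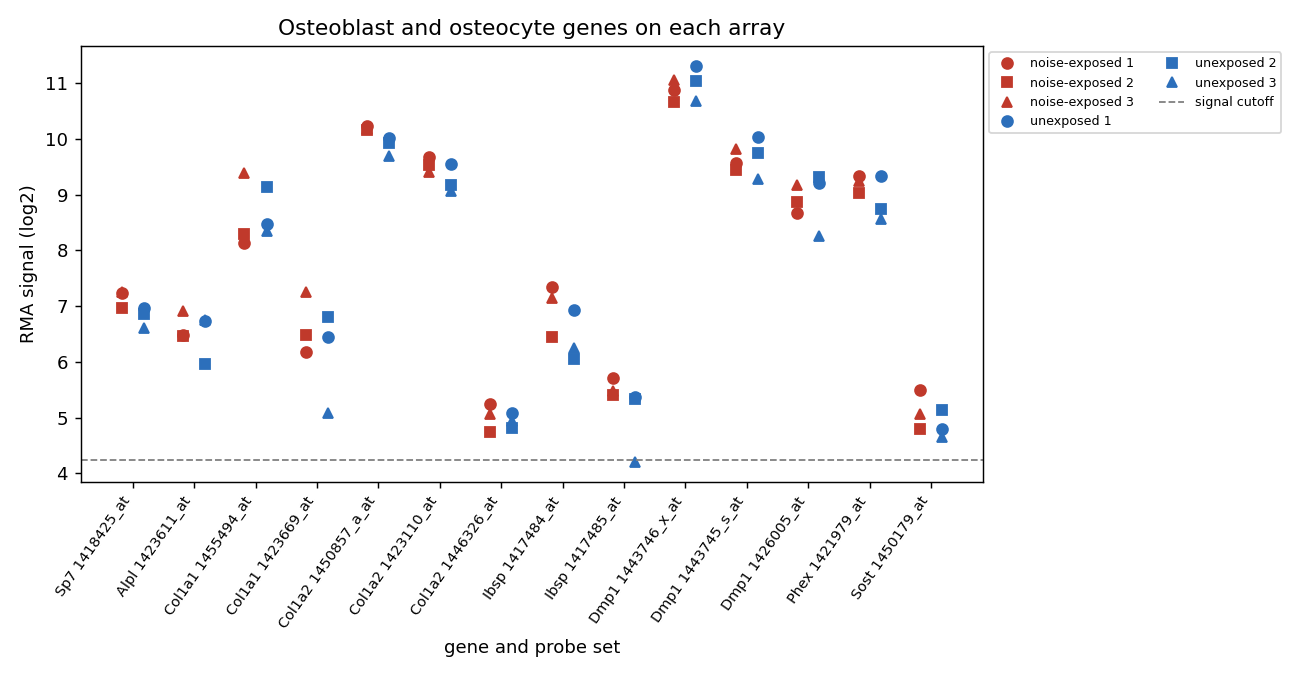
RMA signal (log2) of the 14 tested probe sets, with the 3 noise-exposed arrays on the left (red) and the 3 unexposed arrays on the right (blue) of each column, and the signal cutoff of 4.25 as a dashed line. Point shape gives the replicate number within its group and pairs no mice. Unexposed mouse 3 was the lowest array for 9 of the 14 probe sets.

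Sp7 was read by a single probe set (1418425_at). Its signal was 7.23, 6.97 and 7.26 (log2) on the noise-exposed arrays, against 6.97, 6.86 and 6.60 on the unexposed arrays. Noise-exposed mouse 2 and unexposed mouse 1 met at the same rounded value, and the other noise-exposed mice lay above all unexposed ones. The log2 fold change was 0.34 (SE 0.16, 95% interval -0.04 to 0.72), with a limma adjusted p of 0.709 over all probe sets. Sp7 had the array pattern closest to that of the other measured genes. After each gene was centred on its own mean, its root mean square difference from the mean of the other 7 was 0.10 (log2, over 6 arrays).

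Alpl, the alkaline phosphatase of bone and other tissues, gave 6.48, 6.47 and 6.91 (log2) in noise-exposed mice, against 6.73, 5.96 and 6.75 in unexposed mice (1423611_at). Only unexposed mouse 2 stood below all noise-exposed mice. The difference of 0.14 (SE 0.25) lay within the spread between mice (limma adjusted p = 0.900). Against unexposed mouse 1 or unexposed mouse 3 alone, the noise-exposed mean was lower, with differences of -0.11 and -0.13.

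On their brightest probe sets, the 2 chains of type I collagen did not share an array pattern. Col1a2, the alpha-2 chain, had 3 probe sets. The brightest (1450857_a_at) gave 10.23, 10.16 and 10.18 (log2) in noise-exposed mice, against 10.01, 9.92 and 9.70 in unexposed mice. All noise-exposed values stood above all unexposed ones on it, by the narrowest margin of 0.15 between noise-exposed mouse 2 and unexposed mouse 1. Its log2 fold change of 0.32 (SE 0.14, 95% interval -0.02 to 0.65) had the lowest unadjusted p of the 14, 0.060, and a limma adjusted p of 0.704. A further probe set (1423110_at) gave 9.67, 9.53 and 9.40 in noise-exposed mice and 9.55, 9.18 and 9.07 in unexposed mice, with a difference of 0.27 (SE 0.17). The dim one (1446326_at) ranged from 4.75 to 5.25 over the noise-exposed arrays and from 4.81 to 5.08 over the unexposed arrays, and its groups overlapped (difference 0.08, SE 0.17).

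Col1a1, the alpha-1 chain, had the probe set with the widest spread of the 14. Its brighter probe set (1455494_at) gave 8.13, 8.30 and 9.39 (log2) in noise-exposed mice, against 8.47, 9.14 and 8.35 in unexposed mice. The high arrays were thus 1 mouse of each group, noise-exposed mouse 3 and unexposed mouse 2. The difference was -0.05 (SE 0.36, 95% interval -0.88 to 0.78, limma adjusted p = 0.974). Its dimmer probe set (1423669_at) gave 6.18, 6.48 and 7.25 in noise-exposed mice, against 6.44, 6.80 and 5.08 in unexposed mice. There the value of unexposed mouse 3 was the lowest by over 1 unit, and the difference of 0.53 (SE 0.46, limma adjusted p = 0.789) became 0.02 without that mouse. The brighter probe set exceeded the dimmer by 1.95, 1.82 and 2.14 in noise-exposed mice and by 2.03, 2.34 and 3.27 in unexposed mice. So the 2 probe sets of Col1a1 kept a similar distance on 5 arrays and a wider one in unexposed mouse 3. The SD of the dimmer one over the 6 arrays, 0.73, exceeded that of 98.2% of all tested probe sets. On the brightest probe sets, Col1a1 minus Col1a2, centred on its mean over the arrays, was -0.70, -0.46 and 0.61 in noise-exposed mice and -0.14, 0.63 and 0.06 in unexposed mice.

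Ibsp, bone sialoprotein, had the largest differences of the 8 genes. It gave 7.34, 6.45 and 7.15 (log2) in noise-exposed mice, against 6.94, 6.05 and 6.25 in unexposed mice on its brighter probe set (1417484_at). Noise-exposed mouse 2 lay below unexposed mouse 1, so the groups overlapped. The log2 fold change was 0.57 (SE 0.30, 95% interval -0.14 to 1.27, limma adjusted p = 0.715), a ratio of 1.48. The dimmer probe set (1417485_at) gave 5.71, 5.40 and 5.48 in noise-exposed mice, against 5.37, 5.34 and 4.21 in unexposed mice, with unexposed mouse 3 below the cutoff. Its groups did not overlap, by 0.03 at the nearest, and the difference was 0.55 (SE 0.31, limma adjusted p = 0.721). Without unexposed mouse 3 it was 0.17. The 2 probe sets ranked the unexposed mice differently: unexposed mouse 2 was lowest on the brighter and unexposed mouse 3 on the dimmer.

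Dmp1, dentin matrix protein 1, an osteocyte protein, averaged lower in noise-exposed mice on all of its 3 probe sets. The brightest (1443746_x_at, whose suffix marks probes that may bind related transcripts) gave 10.87, 10.66 and 11.05 (log2) in noise-exposed mice, against 11.31, 11.03 and 10.68 in unexposed mice. The groups overlapped, and the difference was -0.14 (SE 0.20, 95% interval -0.61 to 0.32, limma adjusted p = 0.867). The next (1443745_s_at) gave 9.56, 9.44 and 9.82 in noise-exposed mice, against 10.04, 9.74 and 9.28 in unexposed mice, with a difference of -0.08 (SE 0.22). The third (1426005_at) gave 8.67, 8.87 and 9.17 in noise-exposed mice, against 9.20, 9.32 and 8.25 in unexposed mice, with a difference of -0.02 (SE 0.29). On each of the 3 an unexposed array was the highest of the 6. Without unexposed mouse 1 the 3 differences were 0.01, 0.10 and 0.12, so all 3 changed sign without that mouse. The sign of the dimmer probe sets also changed without other mice, to 0.01 without noise-exposed mouse 2 for 1443745_s_at, and to 0.09 without noise-exposed mouse 1 and 0.18 without unexposed mouse 2 for 1426005_at.

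Phex, a membrane peptidase of bone cells whose loss causes phosphate wasting and which lies on the X chromosome, gave 9.33, 9.02 and 9.24 (log2) in noise-exposed mice, against 9.34, 8.75 and 8.57 in unexposed mice (1421979_at). Unexposed mouse 1 was level with the highest noise-exposed mouse and the other unexposed mice lay below all noise-exposed ones. The log2 fold change was 0.31 (SE 0.22, limma adjusted p = 0.754), and against unexposed mouse 1, of the same dissection day, it was -0.14. The Phex difference was 0.54 without unexposed mouse 1 and 0.15 without unexposed mouse 3. The other Phex probe set (1450445_at) lay between 2.89 and 3.72, below the cutoff on all 6 arrays, and was not tested.

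Sost encodes sclerostin, a Wnt inhibitor that osteocytes secrete. Its probe set above the cutoff (1450179_at) gave 5.50, 4.79 and 5.07 (log2) in noise-exposed mice, against 4.80, 5.13 and 4.66 in unexposed mice. The groups overlapped (log2 fold change 0.25, SE 0.22, limma adjusted p = 0.791). The Sost difference was 0.06 without noise-exposed mouse 1, 0.42 without noise-exposed mouse 2, 0.38 without unexposed mouse 2 and 0.15 without unexposed mouse 3. The other (1421245_at) lay below the cutoff on all 6 arrays, between 2.98 and 3.39. Since every probe set binds with its own strength, these signals rank no gene against another.

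**Figure D2:**
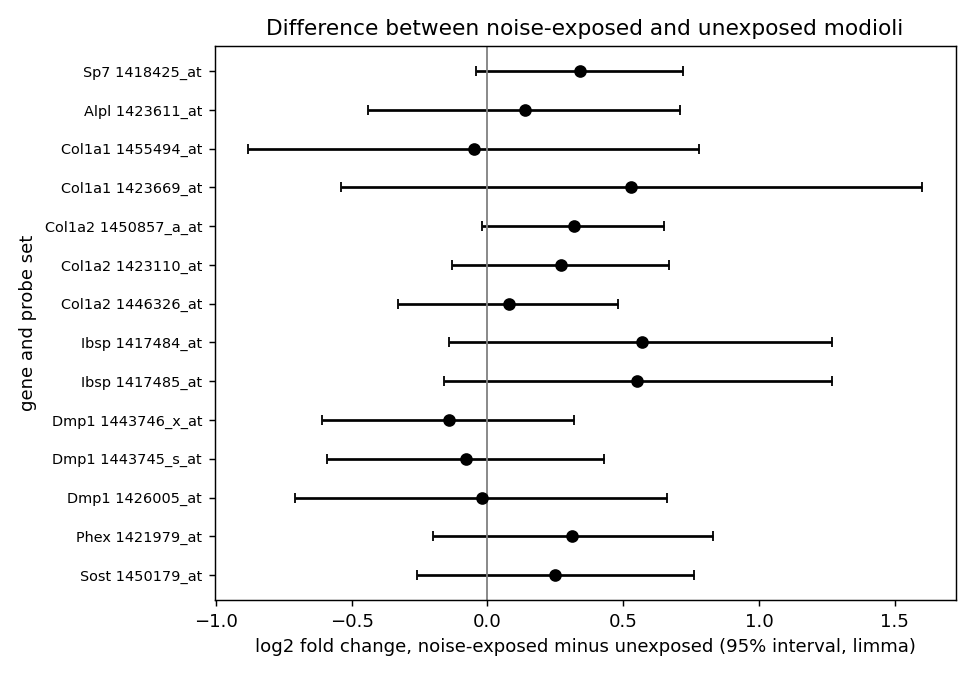
Log2 fold change (noise-exposed minus unexposed, horizontal axis) of the 14 tested probe sets, with 95% intervals from limma (n = 3 mice a group). All 14 intervals hold 0; the differences run from -0.14 for Dmp1 to 0.57 for Ibsp.

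The promoter sequences of 3 of these genes are shown because they stood at different ends of the comparison: Ibsp had the largest difference, Col1a2 the lowest unadjusted p, and Dmp1 differences below 0. They are the 250 bases before the annotated start, from RefSeq on the GRCm38.p6 assembly, 5′ to 3′ on the strand of the gene, and capitals mark matches, on either strand, to TGTGGT, the core motif of Runx factors, to TATAAA, found near the start of many genes, or to CCAAT, which the factor NF-Y binds. Ibsp is at chr5:104299037-104299286 (+ strand), Dmp1, before its second annotated start, at chr5:104202367-104202616 (+ strand) and Col1a2 at chr6:4505368-4505617 (+ strand).
Ibsp: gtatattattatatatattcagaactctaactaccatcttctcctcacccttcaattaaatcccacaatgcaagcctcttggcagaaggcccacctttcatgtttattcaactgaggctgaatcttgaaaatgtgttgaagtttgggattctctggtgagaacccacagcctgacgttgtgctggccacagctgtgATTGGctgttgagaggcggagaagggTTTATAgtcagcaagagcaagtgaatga
Dmp1: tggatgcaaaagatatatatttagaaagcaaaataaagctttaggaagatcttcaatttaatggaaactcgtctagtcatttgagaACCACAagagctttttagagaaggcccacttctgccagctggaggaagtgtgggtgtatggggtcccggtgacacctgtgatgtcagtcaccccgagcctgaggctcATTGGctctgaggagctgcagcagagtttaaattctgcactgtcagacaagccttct
Col1a2: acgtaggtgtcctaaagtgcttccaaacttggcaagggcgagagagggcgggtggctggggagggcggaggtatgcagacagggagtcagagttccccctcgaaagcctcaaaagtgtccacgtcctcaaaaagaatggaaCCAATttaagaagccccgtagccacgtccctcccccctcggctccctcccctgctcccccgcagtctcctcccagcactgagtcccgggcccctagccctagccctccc
Ibsp held a reversed CCAAT 54 bases and a reversed TATAAA 28 bases before its start. Dmp1 held a reversed TGTGGT at 164 bases and a reversed CCAAT at 57 bases before its second start, and Col1a2 a CCAAT at 109 bases. The window before the first Dmp1 start, not shown, held a reversed CCAAT at 101 bases and no TGTGGT or TATAAA. RefSeq windows were given for 8 of the 10 genes, 11 windows in all, and not for Sp7 and Col1a1. CCAAT was present in 6 of the 11 windows (5 of 8 genes), against 33.8% of all 32851 windows of that length. TGTGGT was present in 3 of 11, against 14.0%, and TATAAA in 3 of 11, against 12.4%. No matches overlapped each other. A match of letters is a description and not a binding site. In the RefSeq order of protein-coding genes on chromosome 5, Dmp1, Ibsp, Mepe and Spp1 follow each other directly. All 4 encode proteins of mineralised tissue. The differences of neighbouring Dmp1 and Ibsp had opposite signs, and Mepe, an inhibitor of mineralisation made by osteocytes, averaged 5.48 ± 0.38 (log2; SD, n = 3) with noise and 5.34 ± 0.59 without.

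How far the differences depended on which unexposed mouse served as comparison was then examined. The mean of the noise-exposed arrays exceeded unexposed mouse 3 on 13 of the 14 probe sets, with a median difference of 0.48 (log2), where 55.7% of all tested probe sets exceeded that array. It exceeded unexposed mouse 2 on 8 of 14 (median 0.20, all tested 47.5%). It exceeded unexposed mouse 1, the only unexposed mouse of the first dissection day, on 7 of 14 (median 0.01, all tested 60.8%). Unexposed mouse 3 was the lowest array for 9 of the 14 probe sets and noise-exposed mouse 1 the highest for 6.

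**Figure D3:**
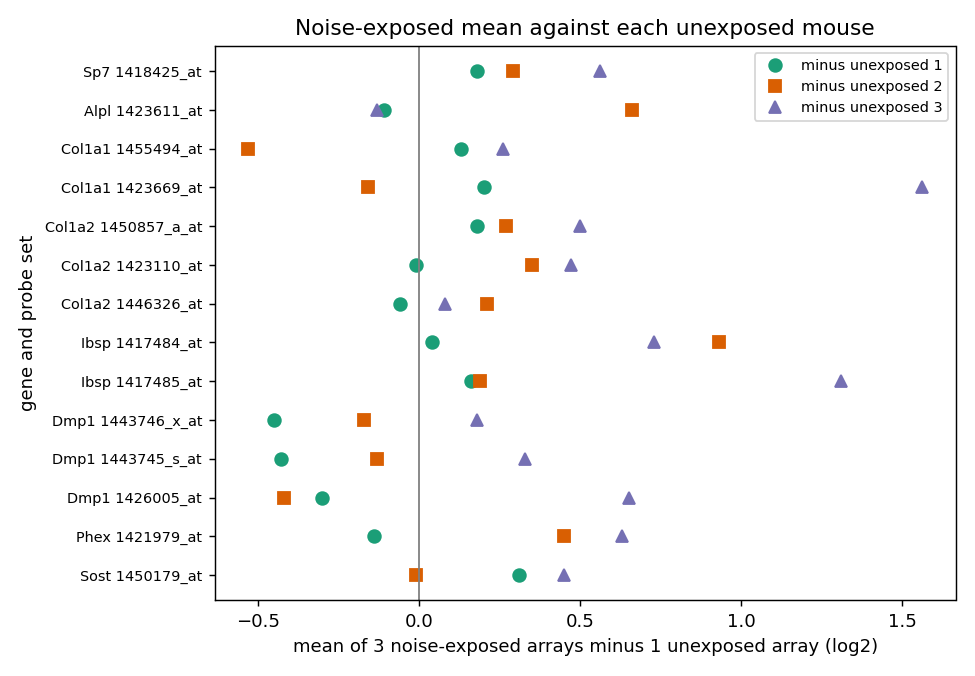
Mean signal of the 3 noise-exposed arrays minus that of 1 unexposed array (log2, horizontal axis) for the 14 tested probe sets, with 1 symbol per unexposed mouse. Differences from unexposed mouse 3 (triangles) lie above 0 for 13 probe sets, and those from unexposed mouse 1 (circles) for 7.

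With the dissection day in the model, which sets the noise-exposed mice against unexposed mouse 1 alone, the median over the 8 genes was 0.09 (log2). With sex in the model, which sets them against unexposed mouse 2 alone, it was 0.28. The largest single difference under the day model was that of Dmp1 and was negative, at -0.45. With sex in the model it was Ibsp, at 0.93 (1417484_at, limma adjusted p = 0.479), whereas under the day model the same probe set of Ibsp was at 0.04 and its dimmer one at 0.16. Each such value rests on 1 unexposed mouse.

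Averaged over the 8 genes, each centred on its own mean, the noise-exposed arrays lay at 0.16, -0.13 and 0.30 (log2) and the unexposed arrays at 0.09, -0.13 and -0.29. The groups overlapped: noise-exposed mouse 3 had 8 of 8 genes above the gene's own mean, and noise-exposed mouse 2 had 1 of 8. Over all tested probe sets the same deviation had a median between -0.06 and 0.05 on every array. The total RNA of the arrays at both ends, noise-exposed mouse 3 and unexposed mouse 3, was 10 and 8 ng, and the part of RNA input in these levels was not tested beyond a model with it as a covariate, where the median over the 8 genes was 0.26. The excess of the end over the start of the beta-actin control transcript, a sign of RNA integrity and amplification, was 2.04 to 2.28 (log2) on noise-exposed and 1.93 to 2.08 on unexposed arrays. For Gapdh it was 1.17 to 1.48 on noise-exposed and 1.21 to 1.32 on unexposed arrays, so the unexposed range lay inside the noise-exposed one. The part of RNA integrity in the result was not tested.

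The spread over the 6 arrays, group differences included, was wider for these probe sets than for the array at large. The median SD over the 6 arrays was 0.31 (log2) for the 14 probe sets and 0.24 over all tested, and 11 of the 14 lay above 0.24. The median SE of the group difference, which rests on the spread within groups, was 0.22 for the 14 and 0.19 over all tested. In whole tissue, fewer bone cells in a dissected piece and less RNA per bone cell cannot be told apart. The genes outside the 8 whose array pattern came closest to their mean pattern were 1810010H24Rik, Gimap6, Ppan, Actn4 and Eng, with root mean square differences of 0.043, 0.049, 0.049, 0.060 and 0.060 (log2, over 6 arrays), beside a median of 0.273 over 11853 genes. With so many genes and 6 arrays, close matches of this size are a description only.

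Further genes of bone formation were read from lists of osteoblast transcription factors, bone matrix and mineralisation genes, and enzymes that process type I collagen. Of 43 listed genes, 35 had a named probe set and 29 were tested, with 24 above 0, 5 below 0 and 0 passing limma (median 0.11). Unexposed mouse 3 was the lowest of the 6 arrays for 12 of the 29. Over all genes tested with 1 probe set each, 63.3% lay above 0, with a median of 0.07. Plod1 and Postn were the 2 of 29 with an unadjusted p under 0.05 by limma, which 7.07% of all tested probe sets had. The groups did not overlap for 2 of the 29, Plod1 and Mmp14, against 13.5% of all tested probe sets.

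Among matrix and mineralisation genes 12 of 13 lay above 0 (median 0.11). Postn, periostin, of bone surfaces and other connective tissue, gave 5.35, 4.56 and 5.21 (log2) in noise-exposed mice, against 4.63, 4.31 and 4.41 in unexposed mice (difference 0.59, SE 0.23, limma adjusted p = 0.697). Noise-exposed mouse 2 was the 1 mouse of its group that lay below an unexposed one. Omd, osteomodulin, a keratan sulphate proteoglycan of bone, gave 8.00, 7.78 and 8.06 in noise-exposed mice, against 7.99, 7.66 and 6.89 in unexposed mice, with unexposed mouse 3 lowest. Pth1r, the parathyroid hormone receptor, differed by 0.27 (SE 0.20). Mmp14, a membrane collagenase, was the 1 gene of the list below 0, at -0.17 (SE 0.14), with groups that did not overlap. Ifitm5, Tnn, Mmp13 and Fgf23 lay below the cutoff on all 6 arrays. Ifitm5 is a membrane protein of mineralising osteoblasts and Fgf23 the phosphate-regulating hormone of osteocytes.

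The enzymes that modify type I collagen had 8 of 10 genes above 0 (median 0.15). Plod1, a lysyl hydroxylase, gave 6.78, 6.64 and 6.57 (log2) in noise-exposed mice, against 6.02, 6.28 and 6.18 in unexposed mice. All noise-exposed mice lay above all unexposed ones, and the log2 fold change of 0.50 (SE 0.15) had a limma adjusted p of 0.667. Plod2, another lysyl hydroxylase, was at -0.39 (SE 0.27), with its other tested probe set of opposite sign, and Lox, which cross-links collagen, at -0.34 (SE 0.29). Crtap, a partner in prolyl 3-hydroxylation, was at 0.25 (SE 0.19). Of the transcription factors other than Sp7, 4 of 6 lay above 0 and the median was 0.02. Cbfb, the partner subunit of Runx proteins, gave 10.32, 10.84 and 10.66 in noise-exposed mice, against 10.86, 11.35 and 10.48 in unexposed mice (-0.30, SE 0.25). Dlx3 was at 0.21 (SE 0.34), Twist1 at -0.07, and Atf4 at 0.05 with its other tested probe set of opposite sign. Dlx6 and Msx2 lay below the cutoff on all 6 arrays.

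**Figure D4:**
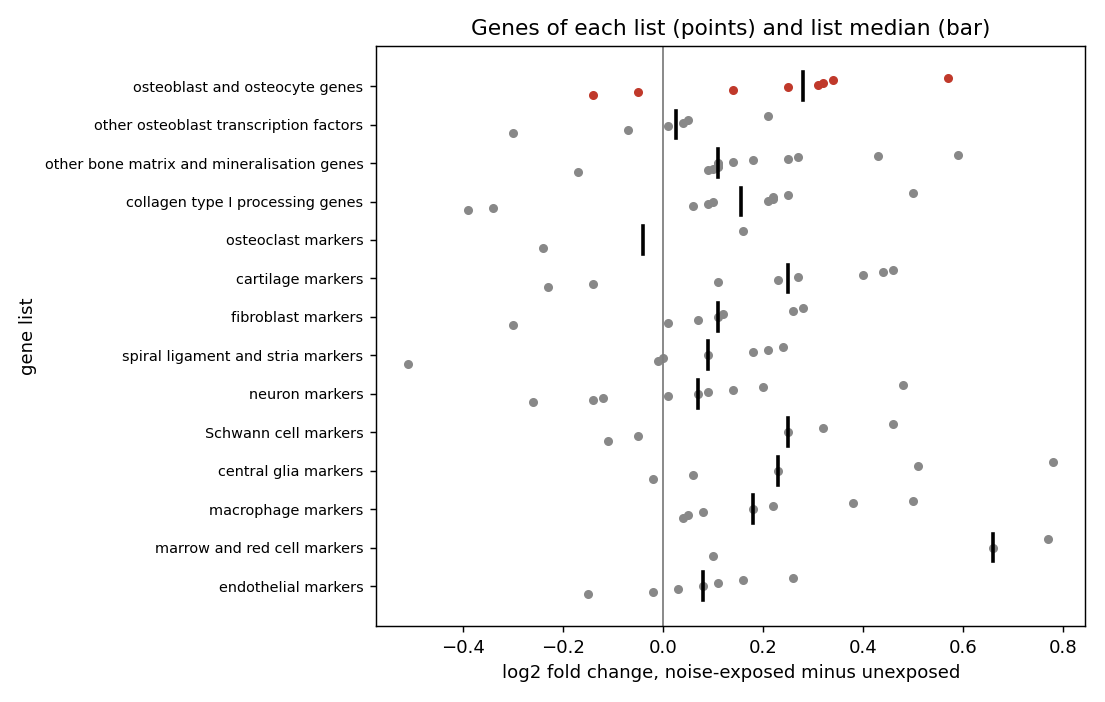
Log2 fold change (noise-exposed minus unexposed, horizontal axis) of every tested gene of each list, 1 probe set per gene, with the list median as a black bar. The 8 osteoblast and osteocyte genes (red) have a median of 0.28, beside 0.25 for cartilage markers and -0.04 for osteoclast markers. The 3 tested marrow and red cell markers, each below the cutoff on at least 1 array, have a median of 0.66. Skeletal muscle markers are not drawn, since Ttn lay below the cutoff in 1 group and has no exact size.

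Markers of other cells in the dissected piece were set beside the bone genes, as the summed linear signal of a list on each array. Bright probe sets weigh most in such a sum, in the bone list those of Dmp1 and Col1a2. The sums also hold named genes below the cutoff, which add background, as most of the osteoclast list does. They rank no list against another. The 8 osteoblast and osteocyte genes summed to 3927 to 5006 signal units in noise-exposed and 3478 to 4950 in unexposed mice. For osteoclasts, which resorb bone, Acp5, Calcr, Oscar, Ocstamp, Dcstamp, Atp6v0d2 and Tnfrsf11a lay below the cutoff on all 6 arrays. That is 7 of 10 markers, and the list summed to 166 to 181 in noise-exposed and 149 to 227 in unexposed mice. Of the 2 tested osteoclast genes Nfatc1 was at -0.24, with its other tested probe set of opposite sign, and Mmp9 at 0.16.

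Cartilage markers, which the piece may also hold, had 6 of 8 tested genes above 0 (of 11 listed), a median of 0.25 with sums of 4224 to 5206 in noise-exposed and 4016 to 4458 in unexposed mice. Col2a1, the collagen of cartilage and of the otic membranes, averaged 8.00 ± 0.40 (log2; SD, n = 3) with noise and 7.56 ± 0.29 without, and Col11a2, Col9a1 and Hapln1 were at 0.46, 0.40 and -0.23. Col11a2 missed the cutoff in 1 of the 3 unexposed mice, and the other tested probe set of Col9a1 had the opposite sign. For Hapln1 all noise-exposed mice lay below all unexposed ones, with 10.53 as the highest noise-exposed and 10.54 as the lowest unexposed value. Matn1, Comp and Col10a1 lay below the cutoff on all 6 arrays. Fibroblast markers had 6 of 7 tested genes above 0 (of 9 listed, with Dpt and Clec3b below the cutoff on all 6 arrays), a median of 0.11 and sums of 3937 to 4328 in noise-exposed and 3519 to 4075 in unexposed mice. Fbln2 was at 0.28, Col3a1 at 0.26, Mfap5 at -0.30 and Dcn at 0.11. Fbln2 lay above the cutoff in 1 of the 3 unexposed mice, and the other tested probe set of Col3a1 had the opposite sign. The part of cartilage and fibroblasts in the levels of the bone genes was not tested.

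Marrow and red cell markers had 3 tested genes of 11, all above 0 with a median of 0.66, and sums of 133 to 222 in noise-exposed and 89 to 192 in unexposed mice. S100a9 and S100a8, neutrophil proteins, averaged 5.95 ± 0.46 and 5.17 ± 0.63 (log2; SD, n = 3) in noise-exposed mice, against 5.18 ± 1.12 and 4.51 ± 0.84 in unexposed mice. S100a9 lay above the cutoff on 2 of the 3 unexposed arrays and S100a8 on only 1. Slc4a1 was at 0.10, and lay above the cutoff on only 2 noise-exposed arrays and 1 unexposed array. Ngp, Camp, Elane, Mpo, Alas2 and Hba-a1 lay below the cutoff on all 6 arrays. Acta1, Ckm, Myh4 and Tnnt3 of skeletal muscle also did. Of the other genes in the muscle list, Myl1 was at 0.24 and Pvalb, which is also in the neuron list, at 0.01. Ttn lay below the cutoff on all 3 noise-exposed arrays and above it on all 3 unexposed arrays.

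The remaining lists had medians of 0.07 for neurons (6 of 9 above 0), 0.08 for endothelium (5 of 7), 0.09 for spiral ligament and stria (4 of 7), 0.18 for macrophages (7 of 7), 0.23 for central glia (4 of 5) and 0.25 for Schwann cells (3 of 5). None of the genes in these lists passed limma, with lowest adjusted p values of 0.667, 0.816, 0.768, 0.667, 0.667 and 0.704 in the same order of lists. The neuron markers summed to 23623 to 26634 in noise-exposed and 23729 to 26610 in unexposed mice. Schwann cell markers summed to 20474 to 21507 in noise-exposed and 19723 to 20611 in unexposed mice, and central glia markers to 5942 to 7135 in noise-exposed and 4560 to 6300 in unexposed mice. Those of spiral ligament and stria summed to 11417 to 13141 in noise-exposed and 10345 to 12089 in unexposed mice. Macrophage markers summed to 696 to 739 in noise-exposed and 588 to 750 in unexposed mice, and endothelial markers to 1109 to 1368 in noise-exposed and 1031 to 1437 in unexposed mice. The ranges of the groups overlapped for each of these 6 lists.

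Some single markers of nerve, glia, macrophages, and spiral ligament and stria separated the groups without passing the test. Over all tested probe sets the groups did not overlap for 13.5%, and for 8.47% with noise-exposed mice higher. Mobp, a protein of central myelin, gave 10.47, 10.74 and 10.74 (log2) in noise-exposed mice, against 9.52, 10.00 and 10.08 in unexposed mice, with a difference of 0.78 (SE 0.19, limma adjusted p = 0.667). Mog, also of central myelin, differed by 0.51 (SE 0.19), Tubb3, a neuronal tubulin, by 0.48 (SE 0.15), Tyrobp, a signalling adaptor of macrophages, by 0.50 (SE 0.14), S100b, a protein of glia, by 0.32 (SE 0.13), Mbp, a myelin protein, by 0.25 (SE 0.13), and Kcnj10, a potassium channel, by 0.18 (SE 0.15). For each of them all noise-exposed mice lay above all unexposed ones, for Kcnj10 with 8.34 as the lowest noise-exposed and 8.32 as the highest unexposed value. Other markers of the same lists averaged lower in noise-exposed mice, among them Otor at -0.51 (SE 0.44), Gata3 at -0.26, Snap25 at -0.12 and Egr2 at -0.11. Of the cartilage list, Hapln1 separated the groups with noise-exposed mice lower. The part of nerve, glia and macrophages in the levels of the bone genes was not tested.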

How the data were processed

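Signals of 45101 probe sets were compared between 3 noise-exposed and 3 unexposed mice, grouped by the labels. The deposited values are log2 signals made by the authors with robust multi-array averaging (RMA) of all 6 arrays together, per their deposited code, in R 2.6.1 with Bioconductor 2.1. RMA quantile-normalizes the arrays, so a shift of most transcripts would not be seen.

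Probe sets were named from the platform annotation (34958 with 1 symbol, 932 with several, 9211 with none and unnamed here; 34754 matched to RefSeq by Entrez ID). The 64 control probe sets were left out. The test took probe sets with a signal over 4.25, the cutoff in the authors' code, on 3 or more arrays, and was run with limma 3.58.1 in R 4.3.3 (lmFit, eBayes, two-sided, Benjamini-Hochberg over all 25200). The scripts were tested on simulated data. For lists, 1 probe set per gene was used, that with the highest mean. Named genes were all probe sets of the 8 genes, up to 4 genes of each further list by unadjusted p, the 5 genes closest in array pattern, and markers below the cutoff on all arrays; Mepe was added after its values were seen, as a chromosomal neighbour. Members and lists were chosen with earlier results of these data known. The alternatives were other normalizations and filters, covariates, a replicate block, array weights and each array left out. The labels describe separate animals. The number of arrays limits the precision, and an exact permutation test of 3 against 3 cannot give a p below 0.1. Coordinates are given only for RefSeq sequences, since the array files name no build.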

Additional observations from a re-analysis of the deposited data

How the results depend on the processing

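None of the 14 probe sets passed under any alternative run (lowest adjusted p = 0.426), and the median over the 8 genes stayed between 0.09 (dissection day as a covariate) and 0.37 (without noise-exposed mouse 2). It was 0.17 with array quality weights. Of 223 alternative values of single probe sets, 202 kept their sign and 21 did not. With the day in the model Alpl was at -0.11, Col1a1 (1455494_at) at 0.13, Col1a2 at -0.01 (1423110_at) and -0.06 (1446326_at), and Phex at -0.14. With sex in the model Col1a1 (1423669_at) was at -0.16 and Sost at -0.01. With total RNA input Col1a1 (1455494_at) was at 0.05, and with array weights Col1a2 (1446326_at) at -0.05. With 1 mouse left out at a time, Alpl ranged from -0.12 to 0.27, Col1a1 (1455494_at) from -0.44 to 0.19, Col1a2 (1446326_at) from -0.04 to 0.21, Sost from 0.06 to 0.42, Phex from 0.15 to 0.54, and Dmp1 from -0.36 to 0.18 (1426005_at), -0.28 to 0.10 (1443745_s_at) and -0.31 to 0.01 (1443746_x_at). The cause was not tested. Over all tested probe sets the calls ranged from 0 to 15 with 1 mouse left out, and were 15 without unexposed mouse 2. In that run all noise-exposed mice were female and all unexposed mice male, so sex and exposure cannot be told apart there. Replicate numbers mark no shared litter or day, and the deviations of same-numbered mice correlated at 0.09, 0.03 and -0.04 across probe sets, so they pair nothing. With the replicate block the calls were 0 and the median stayed at 0.28. The filters, renewed normalization (0.29) and median centring (0.25) changed no call. The SE of 0.14 to 0.46 (log2) sets what 3 mice a group can show. The 2 probe sets below the cutoff on all arrays had no test.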
